A study of Mus musculus with 12 samples.

Results

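Chromatin accessibility in mouse bone marrow-derived macrophages (BMDMs) was measured by ATAC-seq in 2 cohorts, and the peak lists of the cohorts are set against each other here: 4 libraries made with the Omni-ATAC protocol against 8 libraries whose titles carry the words ApoE KO, which together are all 12 libraries of the series. ATAC-seq uses a transposase that cuts and tags open DNA, and a peak is a stretch in which tagged fragments pile up. In the Omni-ATAC cohort there was 1 library each of KO untreated, KO with oxLDL, WT untreated and WT with oxLDL. Its labels name KO or WT and give neither the Baf60a allele nor the ApoE status. They say that cell suspensions went to a core facility for the Omni-ATAC protocol, a version of ATAC-seq with changed lysis and washing, and do not say whether the cells were fresh, so the cohort is called Omni-ATAC here. In the ApoE KO cohort there were 2 libraries in each of the same 4 groups, from cryopreserved BMDMs whose nuclei a company prepared and whose libraries were built with a Nextera kit. All 8 came from ApoE KO cells with a floxed Baf60a (f/f), with Lyz2 Cre+ in KO and Lyz2 Cre- in WT. Lyz2 drives Cre in myeloid cells, so the deletion depends on Cre activity in that lineage. Oxidised LDL (oxLDL), which fills macrophages with cholesterol, was given at 50 µg/ml for 48 h. The ages of the mice are not given in the labels.

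Protocol and peak caller (MACS3 in the Omni-ATAC cohort, MACS2 in the ApoE KO cohort) coincide with cohort in every library, so their parts in a difference cannot be told apart. Cell storage and ApoE status are given for the ApoE KO cohort alone, so any part they have cannot be told apart either. Whether replicate libraries came from different animals or cultures is not in the labels, so the p-values speak only for these libraries. The spread between replicates may be technical. The files hold peaks and no reads, so depth is unknown. On the autosomes the Omni-ATAC lists held 80394 to 138132 peaks and the ApoE KO lists at most 44524, so list length and cohort cannot be told apart either. All values below therefore use, unless full lists are named, lists of equal length: the autosomal peaks of each library with the highest score, as many as the shortest list of the 12 held. The score is a whole number that the peak caller gives each peak. This kept 17.7% to 30.3% of each Omni-ATAC list and 54.8% to 100% of each ApoE KO list. The untreated KO library of the Omni-ATAC cohort had the longest list and stood apart from the other 3 Omni-ATAC libraries in several measures, so values without it are given beside the results it moves most.

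Open chromatin in a macrophage lies mainly at promoters, the stretches before a transcription start where RNA polymerase is loaded, and at enhancers inside and between genes, which the lineage factor PU.1 opens together with AP-1, C/EBP and interferon regulatory factors. Promoters rich in CG dinucleotides (CpG islands) are open in most cell types, while enhancers differ between cell types and with stimuli such as modified LDL. The SWI/SNF complex, of which Baf60a (encoded by Smarcd1) is a subunit, moves nucleosomes at both.

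At single loci, some gene starts had a peak centre within 1 kb in every library of one cohort and in no library of the other, and are written as called there. The promoters of 6 such genes are shown because they are the highest-scoring of their kind with a RefSeq sequence. Each run is the 250 bases before the transcription start on the gene's own strand, 5′ to 3′, from RefSeq on GRCm38.p6 (the assembly of mm10), with CG dinucleotides in capitals. The first 3 were called in 4 of 4 Omni-ATAC and 0 of 8 ApoE KO libraries: Kif22 (chr7:127042421-127042670, minus strand), a kinesin that moves chromosomes in mitosis, Smo (chr6:29735247-29735496, plus strand), the signal transducer of the Hedgehog pathway, and Exoc7 (chr11:116306735-116306984, minus strand), a subunit of the exocyst that tethers vesicles. The other 3 were called in 0 of 4 Omni-ATAC and 8 of 8 ApoE KO libraries: Uqcrh (chr4:116075071-116075320, minus strand), the hinge subunit of respiratory complex III, Farsb (chr1:78488898-78489147, minus strand), a subunit of the phenylalanyl-tRNA synthetase, and H3c3 (chr13:23745522-23745771, minus strand), a replication-dependent histone H3 gene.
Kif22: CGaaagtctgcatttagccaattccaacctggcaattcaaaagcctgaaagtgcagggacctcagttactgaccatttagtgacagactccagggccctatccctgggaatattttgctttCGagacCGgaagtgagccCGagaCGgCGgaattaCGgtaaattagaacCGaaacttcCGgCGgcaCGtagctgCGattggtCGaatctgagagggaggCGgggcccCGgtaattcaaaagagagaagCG
Smo: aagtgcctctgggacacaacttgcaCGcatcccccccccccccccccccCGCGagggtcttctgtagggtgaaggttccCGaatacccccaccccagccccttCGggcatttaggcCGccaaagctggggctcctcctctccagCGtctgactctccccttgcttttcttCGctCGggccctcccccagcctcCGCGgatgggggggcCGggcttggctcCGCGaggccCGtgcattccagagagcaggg
Exoc7: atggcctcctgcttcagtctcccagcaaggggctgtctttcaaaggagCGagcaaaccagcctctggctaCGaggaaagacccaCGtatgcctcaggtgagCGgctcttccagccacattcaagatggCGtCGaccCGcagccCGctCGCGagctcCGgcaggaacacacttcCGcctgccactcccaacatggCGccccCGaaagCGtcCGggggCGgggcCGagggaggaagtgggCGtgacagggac
Uqcrh: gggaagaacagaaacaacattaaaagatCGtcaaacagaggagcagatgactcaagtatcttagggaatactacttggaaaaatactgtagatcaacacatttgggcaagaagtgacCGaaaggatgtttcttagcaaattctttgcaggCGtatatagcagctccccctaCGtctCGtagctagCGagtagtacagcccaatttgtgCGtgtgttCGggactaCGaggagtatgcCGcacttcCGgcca
Farsb: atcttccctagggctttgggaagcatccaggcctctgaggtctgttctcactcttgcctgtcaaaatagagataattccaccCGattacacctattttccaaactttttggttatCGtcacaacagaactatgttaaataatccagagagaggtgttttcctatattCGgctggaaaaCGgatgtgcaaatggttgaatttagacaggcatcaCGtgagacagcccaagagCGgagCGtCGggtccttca
H3c3: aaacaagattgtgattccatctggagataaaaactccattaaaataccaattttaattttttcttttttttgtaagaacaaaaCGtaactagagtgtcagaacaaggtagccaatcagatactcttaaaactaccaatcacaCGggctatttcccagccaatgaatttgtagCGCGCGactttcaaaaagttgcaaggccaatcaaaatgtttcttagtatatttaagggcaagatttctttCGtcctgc
The GC content of these runs was 52% in Kif22, 68.4% in Smo and 64.8% in Exoc7, against 45.6% in Uqcrh, 45.2% in Farsb and 34.8% in H3c3. CG dinucleotides numbered 16, 15 and 19 in the 3 promoters called in the Omni-ATAC cohort, against 11, 8 and 6 in the 3 called in the ApoE KO cohort. For Uqcrh and H3c3 the split rested in part on the peak centre: with any overlap of a peak with the window, 4 of 4 and 2 of 4 Omni-ATAC libraries marked them. These 6 runs were picked by score and do not stand for the promoters of either kind. A sequence was at hand for 45 genes called only in the Omni-ATAC cohort and 151 called only in the ApoE KO cohort. Their median promoter GC content was 58.3% and 59.7%, and their median ratio of CG dinucleotides observed over expected 0.504 and 0.769. Neither median was higher in the Omni-ATAC set. The 45 are 75% of their kind, too few for the sequence check given further on, so these medians are description only.

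Peaks were wider in the Omni-ATAC libraries. The median peak width was 896 bp in the untreated WT library, 971 bp in the untreated KO, 782 bp in the oxLDL WT and 816 bp in the oxLDL KO library of the Omni-ATAC cohort. In the ApoE KO cohort it was 430 and 530 bp in untreated WT, 705 and 501 bp in untreated KO, 429 and 371 bp in oxLDL WT, and 421 and 547 bp in oxLDL KO libraries. Every Omni-ATAC library had wider peaks than every ApoE KO library. The means were 866 ± 84.6 bp (SD, n = 4) in the Omni-ATAC cohort and 492 ± 105 bp (SD, n = 8) in the ApoE KO cohort. The difference within genotype and treatment averaged 374.5 bp, with p = 0.0123 by a two-sided exact permutation test that exchanges the cohort labels within each genotype and treatment. That test has 81 arrangements, and 0.0123 is the smallest p it can give. After Benjamini-Hochberg adjustment over the 8 measures tested, the exact permutation p was 0.0165.

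**Figure D1:**
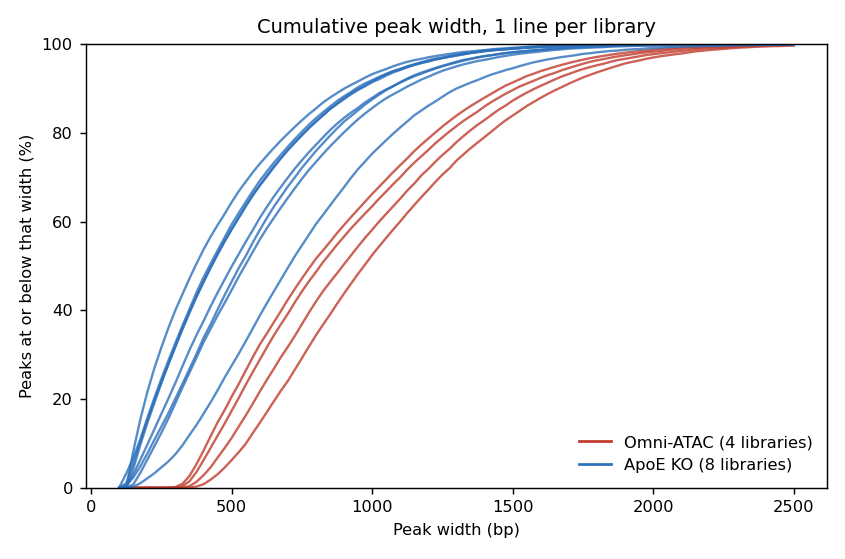
Cumulative distribution of peak width (x axis, bp) in each library's equal-length list of autosomal peaks, with 1 line per library for the 4 Omni-ATAC (red) and 8 ApoE KO (blue) libraries. The 4 red lines lie to the right of the 8 blue ones through most of the range, and the blue line nearest to them is the first untreated KO library, with a median of 705 bp.

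The whole distribution moved, not only its centre. Peaks of 1 kb or more made up 40.01% ± 6.07 (SD, n = 4) of the Omni-ATAC lists and 12.01% ± 5.79 (SD, n = 8) of the ApoE KO lists. Peaks of 2 kb or more made up 2.10% and 0.283%. Peaks under 200 bp were 0% of every Omni-ATAC list, against 2.10% to 21.3% of the ApoE KO lists. Even the full Omni-ATAC lists began at exactly 200 bp in all 4 libraries, while the shortest peak in the full ApoE KO lists was 100 to 143 bp, so a lower limit on width in one set of lists moves with cohort. When peaks under 200 bp were left out of all lists and 19212 peaks kept in each, the difference was 352.8 bp (exact permutation p = 0.0123). In full lists of unequal length the difference was 11.9 bp (exact permutation p = 0.642), so the difference was that of equal numbers of top-ranked peaks. Within the Omni-ATAC cohort the order of the 4 libraries by median width was the order by list length. The peaks kept covered 23.3 ± 1.90 Mb in the Omni-ATAC cohort and 13.9 ± 2.42 Mb in the ApoE KO cohort, with no overlap between the libraries (exact permutation p = 0.0123, adjusted 0.0165).

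Width also differed at the same loci. Of the merged regions called in all 12 libraries, 10408 held exactly 1 peak in each library. There the median width was 1100, 1208, 971 and 1026 bp in the WT untreated, KO untreated, WT oxLDL and KO oxLDL libraries of the Omni-ATAC cohort, against 532 to 839 bp in the 8 ApoE KO libraries. The cohort means were 1076 ± 102.5 bp and 642 ± 96.6 bp (SD, n = 4 and n = 8), and the exact permutation p was 0.0123. The Omni-ATAC peak was wider in 98.8% of these regions, by a median ratio of 1.61. The ratio was 1.602 at promoters, 1.63 inside genes, 1.61 outside a gene but within 50 kb of one, and 1.55 farther away, so the ratio was close to the same value in each class of location. Splitting of wide regions into several peaks was rare in both cohorts: regions called in all 12 libraries held 1.014 ± 0.00783 peaks each in the Omni-ATAC lists and 1.03 ± 0.0154 in the ApoE KO lists (SD, n = 4 and n = 8).

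**Figure D2:**
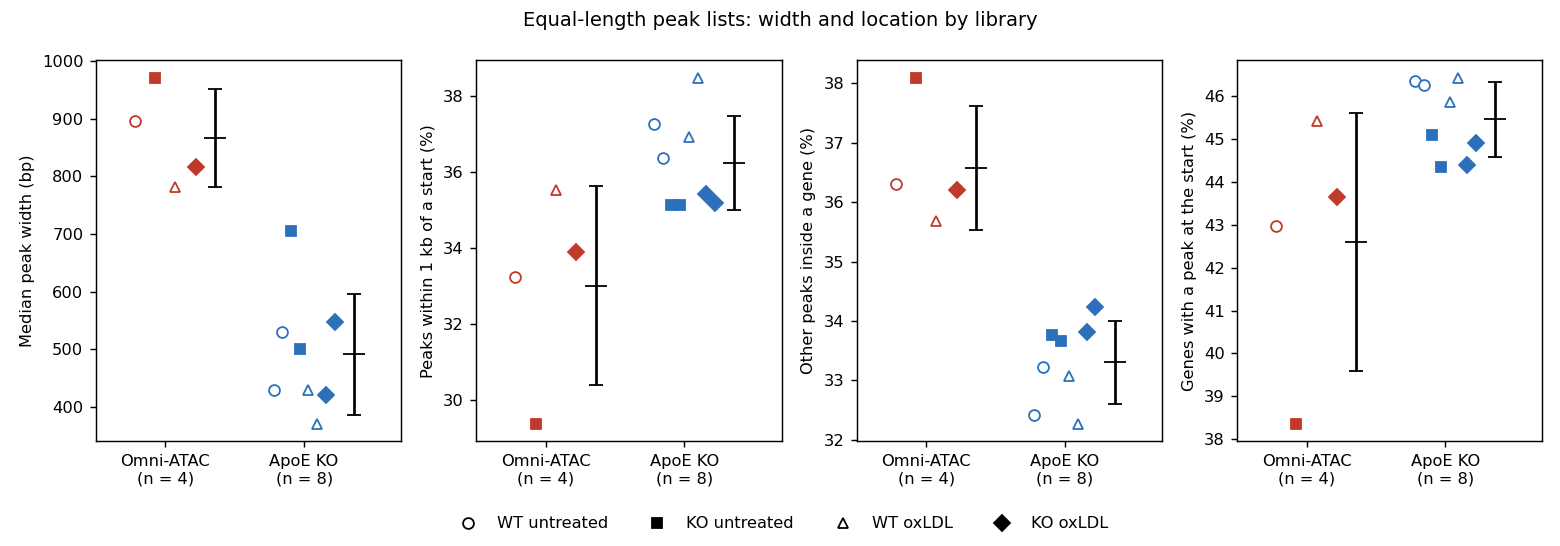
Median peak width, the percent of peaks within 1 kb of a gene start, the percent of other peaks inside a gene, and the percent of 20665 genes with a peak at the start, 1 symbol per library for Omni-ATAC (red, n = 4) and ApoE KO (blue, n = 8), with the mean and SD of each cohort in black (vertical axes do not start at 0). Width and the inside-gene share did not overlap between cohorts, while the 2 promoter measures did, and the red square of the untreated KO library lies farthest from the ApoE KO cohort in all 4 panels.

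In location, Omni-ATAC lists held fewer promoter peaks and more peaks inside genes. A promoter peak here is one whose centre lies within 1 kb of a gene start. Promoter peaks made up 33.2%, 29.4%, 35.5% and 33.9% of the WT untreated, KO untreated, WT oxLDL and KO oxLDL lists of the Omni-ATAC cohort, against 35.1% to 38.5% of the ApoE KO lists. Only the oxLDL WT library of the Omni-ATAC cohort fell inside the ApoE KO range. The means were 33.0% ± 2.62 and 36.2% ± 1.24 (SD, n = 4 and n = 8). The difference of -3.23 percentage points was negative in all 4 genotype and treatment groups (exact permutation p = 0.0123, adjusted 0.0165). It was -4.67 points among untreated and -1.80 points among oxLDL libraries, and -2.39 points without the untreated KO library of the Omni-ATAC cohort. Other peaks inside a gene made up 36.6% ± 1.05 of the Omni-ATAC and 33.3% ± 0.697 of the ApoE KO lists, with no overlap between libraries (exact permutation p = 0.0123, adjusted 0.0165). Distal peaks, over 50 kb from any gene, made up 8.29% ± 1.11 and 8.33% ± 0.459, a difference of -0.04 points (exact permutation p = 0.864), which was not the same along the score ranking, as given next. Peaks outside genes but within 50 kb were 22.1% of the lists in both cohorts.

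The difference in promoter share sat at the top of the ranking, while the inside-gene and distal shares also differed lower down. Among the 5000 highest-scoring peaks of each library, 51.6% ± 9.81 (38.2% to 61.5%) of the Omni-ATAC peaks were at promoters, against 64.9% ± 3.66 (60.7% to 69.2%) of the ApoE KO peaks. That difference was -13.3 percentage points (exact permutation p = 0.0123, adjusted 0.0224 over 20 tests of location and width by rank). It was -20.9 points among untreated and -5.72 points among oxLDL libraries, and -9.67 points without the untreated KO library of the Omni-ATAC cohort. At ranks 5001 to 10000 the promoter share was 38.7% and 42.9%, a difference of -4.20 points with the same p-values, and of -2.78 points without that library. From rank 10001 on, the differences were 0.745, 1.05 and -0.0938 points in 3 successive slices, and the smallest adjusted exact permutation p was 0.123. The inside-gene share was higher in the Omni-ATAC lists in all 5 slices, by 7.45, 4.255, 1.12, 1.58 and 1.75 points, and passed in all but the fourth (adjusted exact permutation p = 0.0224 in the first 3, 0.0882 in the fourth and 0.0380 in the last). The distal share was 6.815% and 4.805% in the first slice, a difference of 2.01 points (adjusted exact permutation p = 0.0380) that was 1.197 without the untreated KO library. At ranks 15001 to 20000 it had the other sign, 9.295% and 10.04%, a difference of -0.7475 points (adjusted exact permutation p = 0.0224). In the other 3 slices the distal share did not pass. Promoter peaks also ranked lower in the Omni-ATAC lists where all libraries had them. At the 5853 promoter regions called in all 12 libraries, the median peak stood at the 73.0th percentile of the Omni-ATAC lists and the 78.9th of the ApoE KO lists, whereas at 3022 regions inside genes it stood at 65.6 and 63.0.

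**Figure D3:**
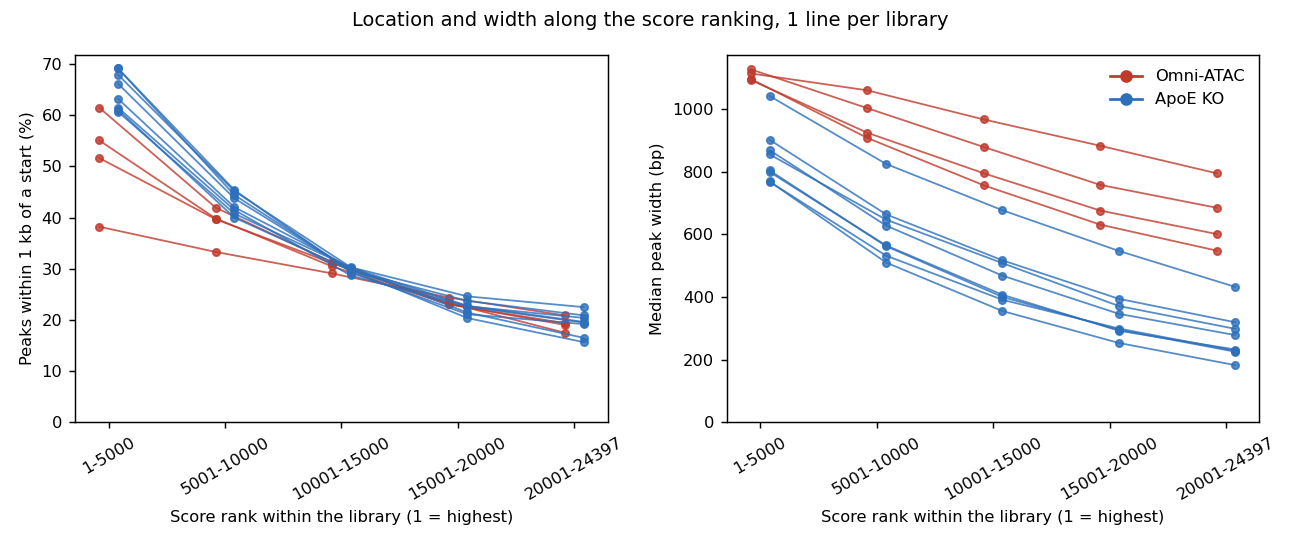
Promoter share (left, % of peaks) and median peak width (right, bp) in 5 successive slices of each library's score ranking, 1 line per library for Omni-ATAC (red, 4) and ApoE KO (blue, 8). The red and blue promoter shares differ by 13.3 points in the first slice and come together from rank 10001, while the widths stay apart in every slice.

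Width did the opposite along the ranking. The Omni-ATAC peaks were 1108 ± 15.97 bp wide in the first 5000 and the ApoE KO peaks 851 ± 91.0 bp. From rank 20001 to the end of the equal-length lists they were 657 ± 108 and 274 ± 77.8 bp (SD, n = 4 and n = 8), so the difference was 256 bp in the first slice and 383 bp in the last. It was 357 to 387 bp in the slices between, and the exact permutation p was 0.0123 (adjusted 0.0224) in all 5.

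Peak sets were on average more alike within a cohort than between cohorts. The share of covered bases that 2 libraries had in common (the Jaccard index) had a median of 70.3% over the 6 pairs of Omni-ATAC libraries, 60.5% over the 28 pairs of ApoE KO libraries and 41.1% over the 32 pairs between cohorts. Pairs between cohorts that shared genotype and treatment had a median of 42.0% (34.65% to 47%, 8 pairs), below the lowest pair within either cohort (57.5% in the Omni-ATAC and 50.2% in the ApoE KO cohort). Over all 32 pairs between cohorts the range was 28.8% to 54.5%, which overlaps that within the ApoE KO cohort. The index within minus between cohorts was 20.02 percentage points (exact permutation p = 0.0123, adjusted 0.0165). Peak width, which also differed between cohorts, enters this index, and its part in the difference was not tested. Score ranks over the 11719 regions called in all 12 libraries had a median Spearman correlation of 0.828 within the Omni-ATAC cohort, 0.823 within the ApoE KO cohort and 0.422 between them, given as a description, since all pairs share the same regions.

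The distribution over chromosomes also differed, by less than 1 percentage point each. Of 19 autosomes, chromosome 11 differed most, with 7.56% ± 0.276 of Omni-ATAC and 6.75% ± 0.349 of ApoE KO peaks, followed by chromosome 1 with 6.87% ± 0.152 and 7.53% ± 0.195 (SD, n = 4 and n = 8; adjusted exact permutation p = 0.0180 for both). Chromosomes 6, 7 and 8 did not pass the test.

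At gene starts, Omni-ATAC lists marked 42.6% ± 3.00 (SD, n = 4) of 20665 autosomal protein-coding genes and ApoE KO lists 45.5% ± 0.870 (SD, n = 8). By library this was 8881, 7927, 9384 and 9017 genes in the WT untreated, KO untreated, WT oxLDL and KO oxLDL libraries of the Omni-ATAC cohort, against 9165 to 9593 genes in the ApoE KO cohort. The oxLDL WT library of the Omni-ATAC cohort lay inside the ApoE KO range and the other 3 below it. The difference was -2.86 percentage points (exact permutation p = 0.0123, adjusted 0.0165), and -1.69 points without the untreated KO library of the Omni-ATAC cohort. In full lists it had the other sign, 12.9 points more genes in the Omni-ATAC cohort, whose lists are longer. Most genes did not separate the cohorts: 6579 were marked in all 12 libraries and 9741 in none. The median GC content of the marked promoters was 61.6% and 61.7% (exact permutation p = 0.333).

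Among the 4345 genes marked in 1 to 11 libraries, Fisher's exact test with Benjamini-Hochberg adjustment called 60 genes for the Omni-ATAC cohort (1.38% of those tested) and 186 for the ApoE KO cohort (4.28%). All of them were marked in every library of one cohort and none of the other, which is 0.29% and 0.9% of all 20665 genes, and all had the same adjusted p of 0.0357 by Fisher's exact test. Without adjustment 152 and 453 genes had p under 0.05. No weaker split passed in the equal-length lists after this adjustment. In full lists some did, with 1191 genes called toward the Omni-ATAC cohort and 740 fully separated. In the equal-length lists no gene passed after leaving out any 1 of the 4 Omni-ATAC libraries, either untreated KO library, or the first oxLDL WT or oxLDL KO library of the ApoE KO cohort. With fewer libraries the smallest p that Fisher's exact test can give is larger. A count of 0 therefore does not show that the calls rested on the library left out. With each of the 12 libraries left out in turn, the counts of genes that separated the cohorts fully were 61 to 77 and 191 to 348, the last without the oxLDL WT library of the Omni-ATAC cohort. The full lists, which are longer in the Omni-ATAC cohort, held many of these genes. Of the 186 genes marked only in the ApoE KO cohort, 177 had a promoter peak in all 4 full Omni-ATAC lists, at a median score percentile of 65.6, so they were lower in rank there and not without a peak. Full lists differ in length, so a percentile in one shows only where a peak stood in its own list, of which the equal-length Omni-ATAC lists hold the top 17.7% to 30.3%. Of the 60 marked only in the Omni-ATAC cohort, 52 had one in at least 1 full ApoE KO list and 8 in none. A peak in all the full ApoE KO lists was not possible for them, since the second oxLDL WT library kept its whole list.

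The genes called for the Omni-ATAC cohort that scored highest included Kif22, Smo and Exoc7, whose promoters are printed above. Kif22 stood at percentiles 85.3, 58.5, 87.8 and 64.7 in the WT untreated, KO untreated, WT oxLDL and KO oxLDL libraries of that cohort. Its promoter had a peak in 4 of 8 full ApoE KO lists, at percentiles of 8.98 to 26.4, low in each list. Smo averaged percentile 68.8 and Exoc7 68.7, each again with a peak in 4 of the 8 full ApoE KO lists. Lilra6, a leukocyte immunoglobulin-like receptor, averaged 63.9, and Rab44, an atypical Rab GTPase, averaged 63.5. C1qa, a chain of the complement component C1q that macrophages secrete, stood at 57.1, 54.6, 45.9 and 47.0 in the same order of libraries and had a peak in 2 of 8 full ApoE KO lists. Chit1, a chitinase, averaged 50.9 and ranged from 14.3 to 81.6. Fam189b averaged 61.3 and Odf3l1 51.5. LOC115489489, the first by score with an average of 79.0, separated the cohorts only by the position of its peak's centre: by any overlap with the window, 5 of 8 ApoE KO libraries marked it too.

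On the ApoE KO side, Farsb had percentiles of 66.3 to 70.0 in the 4 full Omni-ATAC lists and 85.4 to 93.4 in the 8 full ApoE KO lists. H3c3 had 52.0 to 66.0 in the full Omni-ATAC and 86.7 to 93.5 in the full ApoE KO lists, and 2 of 4 Omni-ATAC libraries marked it by any overlap. Neither gene had a peak centre at its start in an equal-length Omni-ATAC list. Ell, an elongation factor of RNA polymerase II, averaged percentile 82.7 over the ApoE KO libraries, Irf2bp2, a corepressor that binds IRF2, 80.2, and Mnt, a repressor that pairs with MAX, 78.1. Fth1, the heavy chain of the iron store ferritin, averaged 79.2, and stood at 59.8 to 66.3 in the full Omni-ATAC and 77.0 to 92.0 in the full ApoE KO lists. Zfp773, a zinc finger protein, averaged 78.2. For Uqcrh (89.7), Gm40369 (86.3) and Foxa3 (80.6), a hepatocyte transcription factor, the split rested on the peak centre: by any overlap with the window, Uqcrh was marked in 4 of 4, Gm40369 in 2 of 4 and Foxa3 in 4 of 4 Omni-ATAC libraries. In all, 55 of the 60 and 170 of the 186 genes kept their split when any overlap counted.

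The promoters of the 186 genes lay between those marked everywhere and all promoters in base composition, and differed from those marked everywhere in some motifs. A RefSeq sequence (250 bases before and 50 after the start) was at hand for 151 of them (81.2%). Its GC content had a median of 59.7%, against 62% in the 5474 with a sequence among genes marked in all 12 libraries and 56.7% over all 16457 promoters. The ratio of CG dinucleotides observed over expected was at least 0.6, a common limit for CpG islands, in 72.9%, against 83.1% of promoters marked everywhere and 49.7% of all. Letters were also counted on both strands, as a description and not as binding sites. GCGCATGCG, the NRF1 motif, was in 7.95% of the 151, in 4.33% of the promoters marked everywhere and in 2.45% of all. CACGTG, the E-box, was in 15.9%, 10.1% and 7.96%, and CCAAT in 26.5%, 44.0% and 38.95%. For TGANTCA, the AP-1 motif, the shares were 5.30%, 4.31% and 7.17%, and for CCGGAAG, an ETS motif, 11.3%, 23.7% and 12.25%. TATAAA was in 10.6%, 5.15% and 13.5%, and GGGCGG, the GC box, in 64.2%, 69.3% and 47.3%. GAGGAAGT, the PU.1 motif, was in 3.97%, 3.14% and 3.23%, and TGACGTCA, the CRE, in 1.99%, 3.855% and 2.42%. The ETS and PU.1 motifs share the letters GGAAG. Some shares rest on few of the 151 promoters: 12 with the NRF1 motif, 8 with AP-1, 6 with PU.1 and 3 with the CRE. Differences in motif shares were not tested. For the 60 genes of the Omni-ATAC cohort the check is void, since a sequence was at hand for 45 (75%), under 80%.

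Of the 37 gene lists examined, the clustered histones and the immediate early genes, which are transcribed within minutes of a stimulus, differed most in start peaks between the cohorts. Of 30 immediate early and AP-1 genes, 46.7%, 26.7%, 66.7% and 50% had a start peak in the WT untreated, KO untreated, WT oxLDL and KO oxLDL libraries of the Omni-ATAC cohort, against 76.7% to 83.3% in the ApoE KO libraries. The cohorts did not overlap. The means were 47.5% ± 16.4 and 81.3% ± 3.05 (SD, n = 4 and n = 8), a difference of -33.75 percentage points, and of -27.2 points without the untreated KO library of the Omni-ATAC cohort. Over all genes the difference was -2.86 points. Fos and Junb, subunits of AP-1, Myc, a growth regulator, Dusp1, a MAP kinase phosphatase, and Zfp36, which destabilises cytokine mRNAs, were marked in 0 of 4 Omni-ATAC and 8 of 8 ApoE KO libraries. This split was seen for 16.7% of the list, against 0.9% of all genes. In the full lists all 5 had a promoter peak in 4 of 4 Omni-ATAC libraries. Fos stood at percentiles 48.8, 48.8, 61.7 and 57.1 of the full Omni-ATAC lists, below the top 17.7% to 30.3% kept, and at 52.7 to 83.3 of the full ApoE KO lists. Jun itself was marked in 1 of 4 and 8 of 8 libraries (Fisher's exact test, adjusted p = 0.131), at a mean percentile of 11.7 and 94.1.

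Of 57 clustered histone genes, which are transcribed in S phase from a few gene clusters, 42.1%, 17.5%, 64.9% and 64.9% had a start peak in the WT untreated, KO untreated, WT oxLDL and KO oxLDL libraries of the Omni-ATAC cohort, against 77.2% to 86.0% in the ApoE KO libraries. The oxLDL libraries of the Omni-ATAC cohort came nearest to the ApoE KO range without entering it. The difference was -35.1 points, and -24.85 points without the untreated KO library. Where both cohorts had peaks, the median histone start peak stood at percentile 29.8 in the Omni-ATAC lists and 77.65 in the ApoE KO lists. H3c3 and H4c2 separated fully toward the ApoE KO cohort (3.51% of the list, against 0.9% of all genes). In full lists 89.9% of the 57 genes had a start peak in the Omni-ATAC cohort and 86.2% in the ApoE KO cohort, so this class too was lower in rank in the Omni-ATAC lists rather than without peaks.

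**Figure D4:**
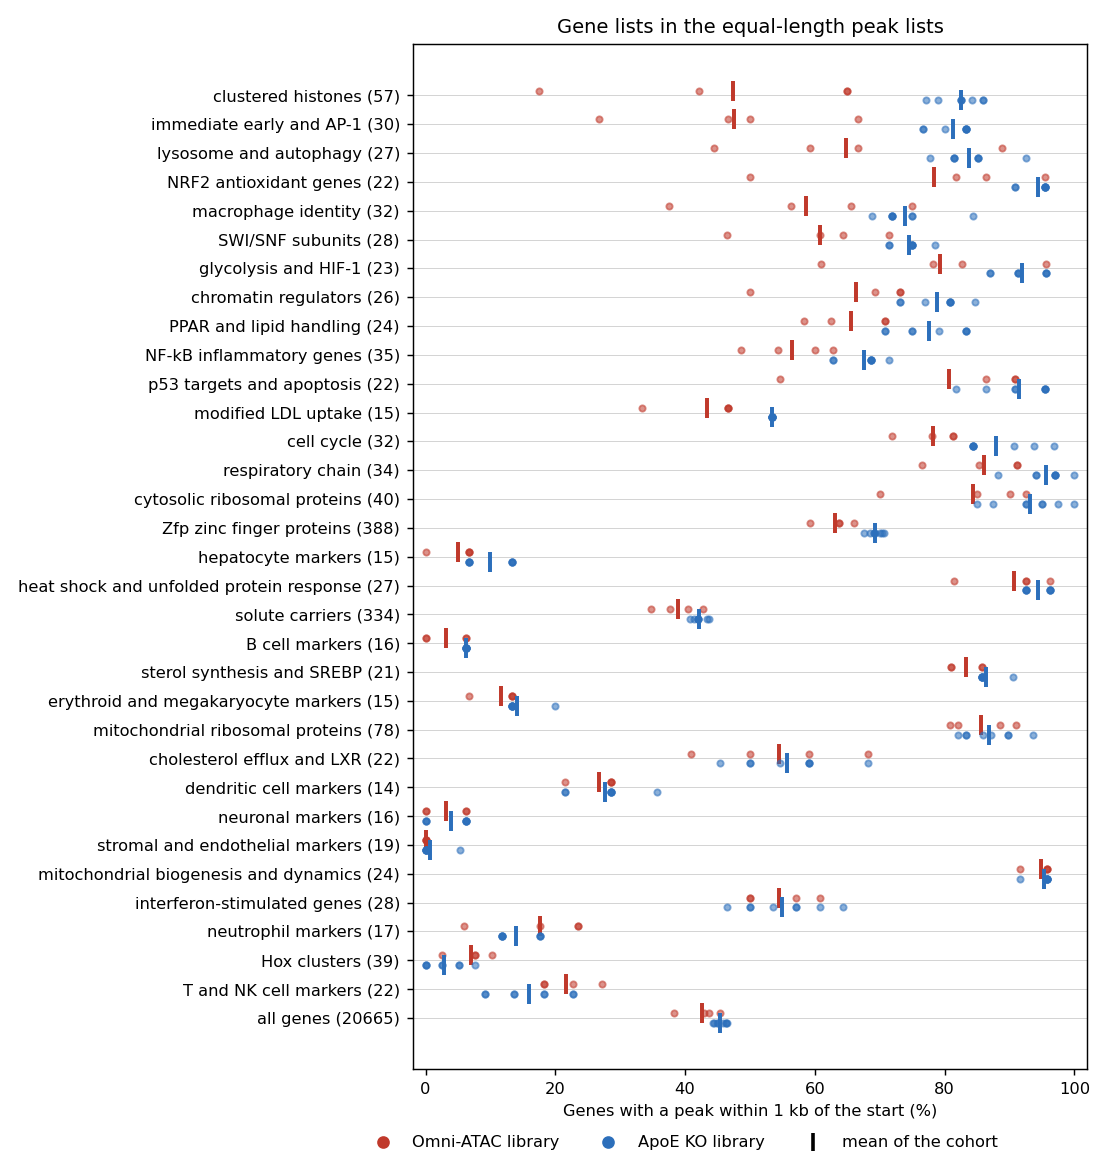
Percent of the genes of each list with a peak within 1 kb of the start in the equal-length lists (x axis), 1 dot per library and a bar for the cohort mean, Omni-ATAC in red above ApoE KO in blue, with the number of genes in brackets and lists ordered by the difference. The clustered histones and the immediate early genes lie at the top, with differences of -35.1 and -33.75 percentage points, and all genes at the bottom, with -2.86.

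Genes that mark macrophages had start peaks in both cohorts. Of 32 macrophage identity genes, 58.6% ± 16.01 had a start peak in the Omni-ATAC libraries and 73.8% ± 4.71 in the ApoE KO libraries (SD, n = 4 and n = 8). The difference was -15.2 points, and -8.33 points without the untreated KO library of the Omni-ATAC cohort. Cd68, a lysosomal glycoprotein of macrophages, and Ctsd, cathepsin D, were marked in every library of the ApoE KO cohort alone (6.25% of the list, against 0.9% of all genes). C1qa was marked so in the Omni-ATAC cohort (3.125%, against 0.29%). Cd68 stood at percentiles 61.5 to 67.8 in the full Omni-ATAC and 44.0 to 76.0 in the full ApoE KO lists. Fcgr1, the high-affinity IgG receptor, stood at 46.0 to 62.4 in all 4 Omni-ATAC libraries, and was marked in 4 of 8 ApoE KO libraries at 2.87 to 39.8. Lyz2, which drives the Cre, was marked in 2 of 4 and 8 of 8 libraries, and in every full list. The start of Smarcd1, the gene that encodes Baf60a, was marked in 3 of 4 and 4 of 8 equal-length lists, and in every full list of KO and WT alike. A peak at the start does not check the knockout. Aif1 and Cd163 had no start peak in any list. Cx3cr1 had one in the 4 full Omni-ATAC lists and in 1 full ApoE KO list.

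In the equal-length lists, markers of other cell types had few start peaks in either cohort. In the Omni-ATAC and ApoE KO libraries they were present at 3.1% and 6.25% of 16 B cell, 21.6% and 15.9% of 22 T and NK cell, 17.6% and 14.0% of 17 neutrophil, 26.8% and 27.7% of 14 dendritic cell, 11.7% and 14.2% of 15 erythroid and megakaryocyte, and 0% and 0.658% of 19 stromal and endothelial genes. None of these lists differed between cohorts by more than 5.68 points, the value of the T and NK cell list. Without the untreated KO library of the Omni-ATAC cohort the B cell difference was -2.08 in place of -3.125 points and the dendritic cell difference -2.38 in place of -0.893. In full lists, which are longer in the Omni-ATAC cohort, the shares were 32.8% and 6.25% of the B cell, 46.6% and 21.6% of the T and NK cell, 41.2% and 19.85% of the neutrophil, 64.3% and 36.6% of the dendritic cell, 45.0% and 16.7% of the erythroid and megakaryocyte, and 40.8% and 5.92% of the stromal and endothelial genes. Over all genes they were 62.7% and 49.9%. Of 12 mast cell and basophil genes, 0% were marked in the equal-length lists of both cohorts. Olfactory receptors and Hox clusters were rarely marked in the equal-length lists, at 0.43% and 0.532% of 1104 genes and at 7.05% and 2.88% of 39. In full lists the shares were 2.24% and 0.679% of the olfactory receptors, and 42.3% and 8.01% of the Hox genes.

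Lipid, lysosomal and stress genes lay between. Of 27 lysosome and autophagy genes, 64.8% ± 18.5 in the Omni-ATAC and 83.8% ± 4.40 in the ApoE KO libraries had a start peak, and Psap, the precursor of the saposins, was marked only in the ApoE KO cohort. The lysosomal difference was -19.0 points, and -13.6 points without the untreated KO library of the Omni-ATAC cohort. The NRF2 antioxidant genes (22) had 78.4% ± 19.8 and 94.3% ± 2.10, a difference of -15.9 points that was -6.82 without that library. Its own value was 50.0%, against 81.8% to 95.45% in the other 3 Omni-ATAC libraries. Genes of PPAR and lipid handling (24) had 65.6% ± 6.25 and 77.6% ± 5.43. Plin2, the coat protein of lipid droplets, and Hadha, a subunit of the mitochondrial fatty acid oxidation complex, were marked in 8 of 8 ApoE KO libraries and 0 of 4 of the Omni-ATAC cohort (8.33% of the list, against 0.9% of all genes). Among 15 genes for uptake of modified LDL, the scavenger receptor Cd36 separated toward the ApoE KO cohort, and stood at percentiles 60.5 to 71.9 of the full Omni-ATAC lists, below the peaks kept, and 44.0 to 80.8 of the full ApoE KO lists. Cd5l, a secreted scavenger protein, separated toward the Omni-ATAC cohort, at 0.416 to 42.4, and was in none of the full ApoE KO lists. The scavenger receptor gene Msr1 was marked in all 12 libraries.

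Several classes were close to each other in the cohorts. Cholesterol efflux and LXR genes (22) had 54.55% ± 11.7 and 55.7% ± 7.19, and the difference had the other sign, 2.27 points, without the untreated KO library of the Omni-ATAC cohort. Interferon-stimulated genes (28) had 54.5% ± 5.36 and 54.9% ± 6.02, with Oas1a marked only in the Omni-ATAC and Rsad2 only in the ApoE KO cohort, and the difference was -0.446 points, or 1.79 without that library. Sterol synthesis genes (21) had 83.3% and 86.3%, and genes of mitochondrial biogenesis and dynamics (24) had 94.8% and 95.3%, a difference of -0.521 points that was 0.694 without that library. Other classes differed by more. NF-kB inflammatory genes (35) had 56.4% ± 6.34 and 67.5% ± 3.03, and SWI/SNF subunits (28) had 60.7% ± 10.5 and 74.55% ± 2.29, with Arid1b, a DNA-binding subunit, marked only in the ApoE KO cohort. The SWI/SNF difference was -13.8 points, and -8.93 without that library, in which 46.4% of the genes were marked. The NF-kB difference was -11.1 points. Respiratory chain (86.0% and 95.6% of 34) and cytosolic ribosomal genes (84.4% and 93.1% of 40) were marked in most libraries of both cohorts, and the ribosomal difference of -8.75 points was -4.58 without that library. Mrpl13, Mrpl3 and Mrpl36 of the 78 mitochondrial ribosomal proteins (3.85%) and Ndufa9 of the respiratory chain (2.94% of its list) separated toward the ApoE KO cohort, against 0.9% of all genes. Of 388 Zfp zinc finger genes, 11 separated toward the ApoE KO cohort (2.835%, against 0.9% of all genes) and 1, Zfp579, toward the Omni-ATAC cohort (0.258%, against 0.29% of all genes). Some of the 11 share a promoter peak (Zfp942 with Zfp943, Zfp758 with Zfp944).

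Counting all peaks in a gene and 50 kb on each side gave a different view from start peaks alone. The number of peaks was tested with limma on log2(peaks + 0.5) over 15575 genes, with Benjamini-Hochberg adjustment. More peaks in the Omni-ATAC cohort were called for 1992 genes (12.8%) and more in the ApoE KO cohort for 1778 (11.4%), and the median log2 difference over all genes was 0. Both counts depended on single libraries. With the untreated KO or the oxLDL KO library of the Omni-ATAC cohort left out, they were 1201 and 1102 for the Omni-ATAC cohort, and 1107 and 1181 for the ApoE KO cohort. Without the untreated WT library of the Omni-ATAC cohort the second count was 1185. Neighbouring genes share windows and peaks, so calls are not independent.

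Of the 37 lists, the clustered histones had the lowest median. Of 57, 42 had more peaks in the ApoE KO cohort (73.7%, against 11.4% of all genes) and 0 in the Omni-ATAC cohort (0%, against 12.8%). Their median log2 difference was -1.02, though their windows overlap within the clusters. Of 30 immediate early and AP-1 genes, 5 had more peaks in the Omni-ATAC cohort (16.7%, against 12.8% of all genes) and 9 in the ApoE KO cohort (30%, against 11.4%). Around Zfp36 there were 3, 2, 5 and 4 peaks in the WT untreated, KO untreated, WT oxLDL and KO oxLDL libraries of the Omni-ATAC cohort, against 8 to 10 in the ApoE KO libraries. That is a log2 difference of -1.32 ± 0.18 (SE; limma adjusted p = 0.00234). Around Junb the counts were 5, 1, 7 and 6, against 8 to 10 (log2 -1.10 ± 0.33, limma adjusted p = 0.0471). Fosl2, another AP-1 subunit, had 5 to 7 peaks in the Omni-ATAC and 3 to 4 in the ApoE KO libraries (log2 0.70 ± 0.09, limma adjusted p = 0.00161). AP-1 genes therefore did not all lie on the same side.

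Lipid genes divided as well. The window of Cd36 held 3, 3, 5 and 4 peaks in the Omni-ATAC and 7 to 11 in the ApoE KO libraries (log2 -1.15 ± 0.08, limma adjusted p = 1.0e-04). For Plin2 the counts were 4, 4, 5 and 4 against 7 to 10 (log2 -0.79 ± 0.09, limma adjusted p = 0.00143). Pparg, the lipid-sensing nuclear receptor, lay the other way with 10, 10, 10 and 13 against 5 to 8 (log2 0.71 ± 0.11, limma adjusted p = 0.00394). Its partner Rxra had 4 to 5 and 2 in every ApoE KO library (log2 0.92 ± 0.05, limma adjusted p = 1.33e-05). In all, 8 of 23 tested PPAR and lipid handling genes had more peaks in the Omni-ATAC (34.8%, against 12.8% of all genes) and 3 in the ApoE KO cohort (13.04%, against 11.4%), although this class had fewer start peaks in the Omni-ATAC cohort. Of 28 SWI/SNF genes 5 had more in the Omni-ATAC cohort (17.9%, against 12.8% of all genes), among them Arid1a (9.75 against 6.25 peaks on average) and the ATPase gene Smarca4 (7.25 against 5.25), and 1 (3.57%, against 11.4%), Smarcb1, had more in the ApoE KO cohort (3.25 against 4.375).

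Of 32 macrophage identity genes, 2 had more peaks in the Omni-ATAC cohort (6.25%, against 12.8% of all genes). These were the receptor genes Mertk (8.5 against 5.25 peaks) and Fcgr2b (11.25 against 6.375). In the ApoE KO cohort 7 of the 32 had more (21.9%, against 11.4% of all genes). Those 7 include Lyz2 (3 against 4.375; log2 -0.50 ± 0.14, limma adjusted p = 0.0335), Ctsb (4 against 7.625) and Lgals3 (3 against 6.5). Of 35 NF-kB inflammatory genes, 7 were called for the Omni-ATAC (20%, against 12.8% of all genes) and 5 for the ApoE KO cohort (14.3%, against 11.4%). Nos2, the inducible nitric oxide synthase, had 4.25 against 1.625 and Il1b 5 against 3, while the neighbours Cxcl1 and Cxcl2 shared a value of 3 against 6.25. Hmox1, heme oxygenase and an NRF2 target, had exactly 4 in each Omni-ATAC library and 6 to 7 in the ApoE KO libraries. Ppargc1a, a coactivator of mitochondrial biogenesis, had 0, 0, 0 and 1 peaks against 1 to 7, a log2 difference of -2.71 ± 0.36 (limma adjusted p = 0.00246). Nrf1, a transcription factor of nuclear-encoded mitochondrial genes, had 6, 6, 5 and 4 against 1 to 3 (log2 1.40 ± 0.23, limma adjusted p = 0.00557). Its start was marked in all 12 libraries, with a mean peak width of 1621 bp in the Omni-ATAC and 722.5 bp in the ApoE KO cohort. The windows of Smarcd1 (2.75 against 2.875 peaks, limma adjusted p = 1) and Apoe (6.5 against 7.25, limma adjusted p = 0.569) were not called. The start of Apoe was marked in 3 of 4 and 1 of 8 equal-length lists, and in 4 of 4 and 4 of 8 full lists.

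The genes with the smallest p were those whose count did not vary at all within a cohort. Defb33, a defensin, and Shox2, a homeobox factor, had 0 peaks in each Omni-ATAC and 2 in each ApoE KO library, and Bmpr1a, a BMP receptor, had 1 and 3. Col20a1, a collagen, had 3 and 1, and Rer1, a retrieval receptor of the endoplasmic reticulum, had 6 and 3. The remaining 8 toward the Omni-ATAC cohort were Cc2d1b, Micos10, Orc1 and Zfpm1 (4 and 2 peaks) and Anxa13, Cpb2, Gstm7 and Morc2a (2 and 1). The remaining 7 toward the ApoE KO cohort (1 and 2 peaks) were Arl14epl, Commd10, Hey1, LOC115489673, Mrpl36, Msl3l2 and Ndufs6. A count that never varies gives limma a residual SD of 0, as for 941 of the genes tested, of which 74 passed, so these p-values rest on the moderated variance.

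Regions were then compared without regard to genes. The peaks of all 12 equal-length lists merged into 41190 regions, of which 11719 (28.45%) were called in all 12 libraries. Called in 4 of 4 Omni-ATAC and 0 of 8 ApoE KO libraries were 895 (2.17% of all regions), and in 0 of 4 and 8 of 8 were 687 (1.67%). The regions of the Omni-ATAC cohort lay mostly inside genes (59.7%) and rarely at promoters (7.04%), while those of the ApoE KO cohort lay inside genes in 35.5% and at promoters in 26.8%. Regions called everywhere lay at promoters in 49.9% and inside genes in 25.8%. Distal shares were alike at 6.15%, 7.42% and 6.92%. Over all 41190 regions, 24.9% lay at promoters, 39.7% inside genes and 9.78% were distal. The regions of the ApoE KO cohort were thus close to all regions in their promoter share. A distance of 10 to 50 kb to the nearest start was held by 49.2% of the regions of the Omni-ATAC cohort, 29.99% of those of the ApoE KO cohort and 23.65% of those called everywhere.

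**Figure D5:**
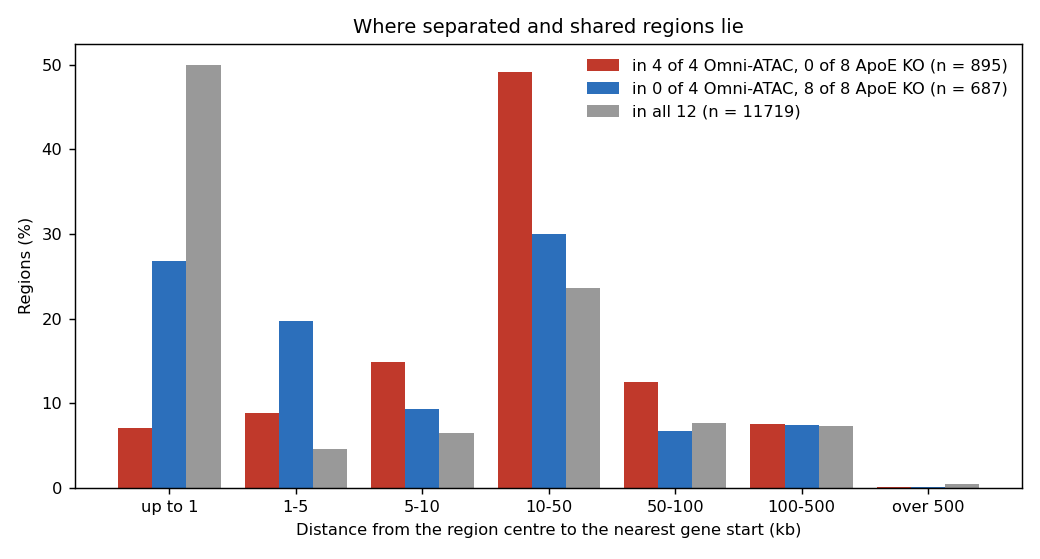
Percent of merged regions (y axis) by distance from the region's centre to the nearest gene start (x axis, kb) for regions called in 4 of 4 Omni-ATAC and 0 of 8 ApoE KO libraries (red), in 0 of 4 and 8 of 8 (blue), and in all 12 (grey). The red bar is highest at 10 to 50 kb, with 49.2%, and the grey bar is highest up to 1 kb, with 49.9%.

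Full lists are longer in the Omni-ATAC cohort, so the shares of the 2 kinds found in them are not alike in meaning. Of the 895 regions, 665 (74.3%) were called in at least 1 full ApoE KO list and 230 in none. A call in all 8 was not possible, since the second oxLDL WT library of the ApoE KO cohort kept its whole list. Of the 687 regions, 634 (92.3%) were called in all 4 full Omni-ATAC lists and 17 in none. Regions of the Omni-ATAC cohort were more often near others of their kind, with at least 3 others within 1 Mb for 57.2%, against 19.1% of those of the ApoE KO cohort, although the densest windows held regions of the ApoE KO cohort. The window of chr1:85000001-86000000, which holds Sp110, Sp140 and Sp100, nuclear body proteins, had 35 of them. The window of chr11:3000001-4000000 with Sfi1 had 19, and chr4:147000001-148000000, a zinc finger cluster, had 8. Whether these 3 windows hold near-identical gene copies was not measured. The sources used here do not say how the authors treated reads that map to several places, so these calls are uncertain. The densest window of the Omni-ATAC kind, chr17:34000001-35000000 with the MHC genes H2-K1, H2-Ab1 and H2-Aa, had 8.

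The highest-scoring separated regions included repeats. In the Omni-ATAC cohort, chr17:39846576-39847843 had a mean score percentile of 99.75 and was called in 0 full ApoE KO lists. RefSeq places Rn18s-rs5 there, a pseudogene related to 18S ribosomal RNA, which has many copies in the genome. Next came chr16:32972407-32973042 inside Lrch3 (90.5), chr11:102338490-102339341 at 9.90 kb from Slc4a1 (88.95), chr2:34359488-34360889 inside Pbx3, a homeobox factor (83.7), and chr19:41474517-41475344 at 7.75 kb from Lcor (83.05). In the ApoE KO cohort the first was chr13:119596445-119597381 inside Tmem267 (98.95), followed by chr11:3126971-3127641 over the pseudogene Pisd-ps1 (98.8), chr4:118548033-118548293 over the noncoding RNA Gm40237 (97.6), chr9:124257382-124257764 at 10.3 kb from Gm39469 (97.4) and chr6:47760374-47762724 at 23.2 kb from Gm40363 (96.0). The first 4 of these 5 were called in all 4 full Omni-ATAC lists and the last in none.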

How the data were processed

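Open chromatin was measured by ATAC-seq in 12 BMDM libraries, with paired reads of length 150 per the labels' protocols. The submitters' processing notes name MACS3 for the Omni-ATAC and MACS2 for the ApoE KO cohort, the build mm10, and, for both, Bowtie2 2.3.4.1, SAMtools 1.2, Picard, bedtools 2.28.0, cutadapt, Trim Galore and FastQC. The sources used here do not give parameters, any shift of reads for the transposase, or how duplicates and repeats were treated. The deposited lists show 1 call set per library. In both cohorts the authors deposited a caller score per peak. For the ApoE KO cohort the authors also deposited the fold enrichment of each peak, a p-value and a q-value as -log10, and the summit offset, which served only for the alternative that places peaks by summit. Scores ranked peaks within a library and were never compared as values between cohorts.

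The autosomal peaks with the highest score were kept in each library, as many as in the shortest list, with ties taken in the order of position. A peak was placed by its centre: at a promoter (within 1 kb of a start), otherwise inside a gene, within 50 kb of one, or distal. Genes were the 20665 autosomal protein-coding genes of RefSeq on GRCm38.p6. A start was known for 16457 from the RefSeq promoter table, and for the others either gene boundary counted. Score percentiles run from 0 (lowest kept) to 100 (highest).

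Library measures were compared with the two-sided exact permutation test within genotype and treatment, calls per gene with Fisher's exact test, and peaks per gene neighbourhood (mean of at least 1 peak) with limma 3.58.1 on log2(peaks + 0.5) with genotype-by-treatment group and cohort as terms. Benjamini-Hochberg adjustment and a threshold of 0.05 were used throughout. Regions were merged at 1 bp of overlap. Gene lists are described by counts, with no test. Code was tested on simulated data. Software was R 4.3.3 and Python 3.11.15 (scipy 1.17.1, pandas 2.3.3, numpy 2.4.6, matplotlib 3.10.9). Named by rule were Smarcd1, Lyz2, Apoe and Nrf1, the 10 separated genes and 5 separated regions per cohort with the highest mean score percentile, the 10 limma calls per direction with the smallest p and 1 sign in all 4 genotype and treatment groups, and up to 4 separated members per list. List members named for ranks or neighbourhoods outside that rule (such as Fcgr1, Jun, Cd36 and Pparg) were chosen after their values were seen. The cohorts, gene lists and tests were chosen with earlier results of these data known.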

Additional observations from a re-analysis of the deposited data

Results flagged for a closer look

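The distal share of peaks differed in sign by treatment. The Omni-ATAC minus ApoE KO difference was 0.767 percentage points among untreated libraries, where both Omni-ATAC libraries lay above the ApoE KO libraries of their genotype. It was -0.846 points among oxLDL libraries, where both lay below. The difference between treatments was not tested.

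The promoter GC content of the untreated KO library of the Omni-ATAC cohort, a median of 61.3%, lay apart from the other 3 Omni-ATAC libraries, which shared a median of 61.7%. All 8 ApoE KO libraries also had 61.7%. How often chance gives such a gap was not tested.

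Chromosomes X and Y were left out of the comparison, because only the Omni-ATAC lists hold peaks there: 9539 on X and 44 on Y over the 4 libraries, against 0 and 0 in the ApoE KO lists. By library the Omni-ATAC lists held 1772 to 3299 peaks on X and 9 to 14 on Y.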

How the results depend on the processing

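The width difference, covered length and the inside-gene share kept their direction with each library left out (349 to 400 bp, 8.76 to 9.97 Mb, 2.90 to 3.63 points), as did the promoter share (-3.84 to -2.39), genes with a start peak (-3.57 to -1.69) and overlap within minus between cohorts (18.9 to 22.3). Exchange over all 12 libraries changed no call. In full lists the width difference was 11.9 bp, the genes with a start peak 12.9 points, the distal share 0.9085 and promoter GC content -0.417 points; the cause was not tested, but the lists then differ in length. Among the top 10000 peaks, distal share was 0.904 and GC content -0.583. Among untreated and oxLDL libraries the promoter share was -4.67 and -1.80, the inside-gene share 3.94 and 2.60, genes with a start peak -4.84 and -0.871, distal share 0.767 and -0.846, and GC content -0.167 and 0. In WT and KO, distal share was -0.206 and 0.126, genes with a start peak -2.02 and -3.69, and GC content 0 and -0.167. The labels do not say what the tag L001, carried by 3 ApoE KO libraries, means. Without these 3 libraries distal share was -0.193 and GC content -0.111. With 1 library left out they ran from -0.385 to 0.263 and from -0.111 to 0.

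Calls per gene toward the Omni-ATAC and ApoE KO cohorts were 189 and 530 among the top 10000 peaks, 1191 and 10 in full lists, 0 and 0 without the L001 libraries, and 0 to 76 and 0 to 205 with 1 library left out. Genes that separated fully were 189 and 530, 740 and 8 in the same 2 settings, 105 toward the Omni-ATAC cohort without L001, and 61 to 77 and 191 to 348 with 1 left out. Separated regions were 22633 and 56 in full lists, 3536 and 237 where a peak had to cover at least 50% of the region, and 933 to 1153 and 716 to 1010 with 1 left out. Neighbourhood calls were 16631 and 78 in full lists, 688 and 882 with 10 kb on each side, 905 and 692 without L001, and 1102 to 2026 and 1107 to 1751 with 1 left out. Among the top 10000, 1255 were called toward the Omni-ATAC cohort. Calls per gene were 0 without any one Omni-ATAC library, either untreated KO library, or the first oxLDL WT or oxLDL KO library of the ApoE KO cohort. Leaving out libraries, also those with L001, raises the smallest p of Fisher's exact test, so these counts of 0 do not show dependence on them.

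Peaks of at least 200 bp, regions with 1 peak in each library, annotated starts alone and the top 5000 peaks were alternatives chosen after seeing the data. No paired analysis was possible because the Omni-ATAC libraries carry no replicate numbers. With depth unknown, a peak missing from a list cannot be told from one under the caller's limit.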
